A study of Homo sapiens with 4 samples.

Results

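Semaphorins, ephrins, SLITs and netrins are the ligands of the classical axon guidance systems, and with their receptors they make up the 67 genes described here. The genes were taken by name pattern: semaphorins of classes 3 to 7, plexins, neuropilins, A and B ephrins with their Eph receptors, SLIT and ROBO genes, netrins and UNC5 receptors. A peak was counted for a gene when it carried the gene's symbol in the authors' deposited table, or when that gene was the nearest protein-coding gene with its RefSeq body within 100 kb. This gave 436 of 60875 peaks at 64 of the 67 genes. PLXNA3, ROBO4 and NTN3 had no peak under this rule. The nearest gene is an assignment by position and does not say which gene a region acts on.

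The peaks come from ATAC-seq, which maps open chromatin by the insertion of sequencing adapters with the transposase Tn5. The cells were wild-type WTC11, an established line of human induced pluripotent stem cells, taken on day 6 of cardiac progenitor differentiation and with 50000 to 100000 cells per library. The "high" group (2 libraries) held progenitors whose differentiation ended in a high purity of cardiomyocytes, and the "low" group (2 libraries) held those that ended in low purity. Both groups share the line, the genotype and the differentiation treatment, and all values rest on this 1 line. The comparison addresses how open regions at the progenitor stage differ by later purity. The values are the authors' DESeq2 comparison, with no value per library, so library depth and the replicate spread of single peaks cannot be seen. Precision is given by the standard error (SE) printed beside a log2 fold change. The mark Up goes with negative log2 fold changes in the authors' deposited table, and the mark Down with positive ones. No source used here gives the numerator, so a change is named only by its side, Up or Down, and is assigned to neither purity group. A peak is said to have changed when its adjusted p (DESeq2, Benjamini-Hochberg over all 60875 peaks) was under 0.05. In bulk libraries, a different share of some cell type and a different accessibility per cell cannot be told apart.

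Guidance ligands steer cells and growing processes by attraction or repulsion at the surface of the receiving cell. Semaphorins signal through plexins, with neuropilins as coreceptors for most secreted class 3 members. SLIT proteins signal through ROBO receptors, netrins through DCC and UNC5 receptors, and ephrins through Eph receptor tyrosine kinases, with signalling possible in both directions between touching cells. In the heart these systems are known from work in mice and other vertebrates. Class 3 semaphorins with plexins and neuropilins act in outflow tract septation and cardiac innervation, SLIT and ROBO genes in the formation of chambers, septa and venous inflow, and ephrin-B2 with EPHB4 in the separation of arteries and veins.

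The RefSeq promoter windows of 4 loci with changed peaks in or beside the gene are shown as examples. Each held an open peak that did not pass, while other peaks of the same gene changed. The same held for ROBO2, SEMA5A, EPHA4, SEMA6C, SEMA3G and UNC5C, whose windows are not shown. The SEMA3E window is shown as the window with the lowest GC content among the guidance gene windows that held a peak. Each runs from 250 bases before to 50 bases after a RefSeq start (GRCh38.p14) and is written 5′ to 3′ on the gene's strand, with CpG dinucleotides in capitals.
SLIT2 (chr4:20251655-20251954, + strand): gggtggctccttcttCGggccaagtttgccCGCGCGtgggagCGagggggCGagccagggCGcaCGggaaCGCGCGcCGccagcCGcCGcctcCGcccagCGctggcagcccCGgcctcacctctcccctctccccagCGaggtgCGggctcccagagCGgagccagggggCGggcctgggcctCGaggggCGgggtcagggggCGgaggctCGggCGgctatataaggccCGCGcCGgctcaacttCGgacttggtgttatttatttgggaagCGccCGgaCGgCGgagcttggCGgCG
SLIT3 (chr5:169301090-169301389, - strand): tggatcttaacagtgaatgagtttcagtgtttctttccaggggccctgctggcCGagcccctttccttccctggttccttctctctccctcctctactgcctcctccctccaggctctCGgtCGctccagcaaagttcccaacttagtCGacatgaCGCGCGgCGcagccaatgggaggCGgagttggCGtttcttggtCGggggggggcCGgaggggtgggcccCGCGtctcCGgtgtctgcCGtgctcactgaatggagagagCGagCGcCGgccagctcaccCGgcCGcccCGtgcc
PLXNA2 (chr1:208244335-208244634, - strand): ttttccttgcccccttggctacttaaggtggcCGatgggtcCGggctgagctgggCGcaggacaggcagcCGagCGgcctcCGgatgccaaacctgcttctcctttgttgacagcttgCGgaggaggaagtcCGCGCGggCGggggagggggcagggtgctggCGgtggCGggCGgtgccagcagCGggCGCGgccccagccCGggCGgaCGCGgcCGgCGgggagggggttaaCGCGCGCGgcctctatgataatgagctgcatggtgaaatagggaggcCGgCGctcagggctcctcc
NRP2 (chr2:205682251-205682550, + strand): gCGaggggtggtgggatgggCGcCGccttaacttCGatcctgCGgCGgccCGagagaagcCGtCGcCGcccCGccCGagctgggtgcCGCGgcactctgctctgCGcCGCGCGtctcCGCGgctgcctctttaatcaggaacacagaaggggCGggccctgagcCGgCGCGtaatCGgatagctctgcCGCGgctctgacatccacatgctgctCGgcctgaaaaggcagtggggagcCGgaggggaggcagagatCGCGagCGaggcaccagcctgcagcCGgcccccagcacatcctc
SEMA3E (chr7:83649090-83649389, - strand): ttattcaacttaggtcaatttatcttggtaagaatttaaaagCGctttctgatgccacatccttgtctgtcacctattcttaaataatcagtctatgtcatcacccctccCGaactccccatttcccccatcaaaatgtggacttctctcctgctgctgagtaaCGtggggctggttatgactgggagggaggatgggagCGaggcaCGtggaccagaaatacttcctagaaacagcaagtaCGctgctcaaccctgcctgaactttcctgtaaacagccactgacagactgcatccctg
The windows of SLIT2, NRP2, PLXNA2 and SLIT3 held 36, 33, 29 and 22 CpG dinucleotides, and that of SEMA3E held 6. GC content was 74.3% for SLIT2, 70.3% for PLXNA2, 70% for NRP2, 64.7% for SLIT3 and 47.3% for SEMA3E. RefSeq gave 89 windows for 57 of the 67 genes. The 50 windows with a peak had a median GC content of 69.5%, against 63.3% in the 39 without one and 58.7% in all 35116 windows of the annotation. Their median number of CpG dinucleotides was 25.5, against 17.0 without a peak and 14.0 in all windows. The windows of the guidance genes with a peak had the higher CpG content. NTN1, UNC5D, UNC5B, NRP1, SEMA6B, SEMA3A, EPHA10, SEMA6A, NTN3 and EFNB3 had no window in the table used.

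A set of 6 short motifs was searched on both strands of these windows. AGATAA, the core bound by GATA factors, stood in 8.99% of the guidance gene windows and 10.3% of all windows. The other shares were 3.37% and 3.42% for TGTTTAC (forkhead factors), 11.2% and 14.0% for GGAATG (TEAD factors), 18.0% and 17.9% for the E-box CAGCTG, with 4.49% and 7.26% for the E-box CACGTG. The AP-1 motif, TGACTCA, stood in 0.00% of the 89 guidance gene windows and 4.95% of all windows. The windows of SLIT2, SLIT3, PLXNA2 and NRP2 held none of the 6 motifs, while the SEMA3E window held the GATA core, the forkhead motif and the CACGTG E-box at 1 position each.

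SLIT2 and SLIT3 also carry the 2 human loci of miR-218, a microRNA whose mature strand is the same from both. It is shown with its seed, bases 2 to 8, in capitals, beside the opposite arms, which differ between the loci.
hsa-miR-218-5p: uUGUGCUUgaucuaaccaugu
hsa-miR-218-1-3p: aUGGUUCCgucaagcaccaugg
hsa-miR-218-2-3p: cAUGGUUCugucaagcaccgcg
The hairpin inside SLIT2 lies at chr4:20528275-20528384, 82031 bp from the nearest changed peak of the gene. That inside SLIT3 lies at chr5:168768146-168768255, 107504 bp from the nearest changed peak. The distances place no changed peak beside either hairpin. RefSeq GRCh38.p14 is the source of these sequences and positions.

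As a whole, the guidance genes did not stand apart from the rest of the table. Of the 436 peaks, 25 changed (5.73%), against 6.0% of all peaks. The Up side held 6 of them (1.38%, against 2.36% of all peaks) and the Down side 19 (4.36%, against 3.64%). The Down side thus took 76.0% of the changed guidance gene peaks and 60.7% of all changed peaks. The median log2 fold change was -0.02 over the 436 peaks and 0.0015 over all peaks, and 48.6% of the guidance gene peaks had a positive value, against 50.1%. Their median mean normalized count was 47.2 (13.5 to 456), against 47.8 for all peaks, and their median SE was 0.39 log2 units in both.

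**Figure D1:**
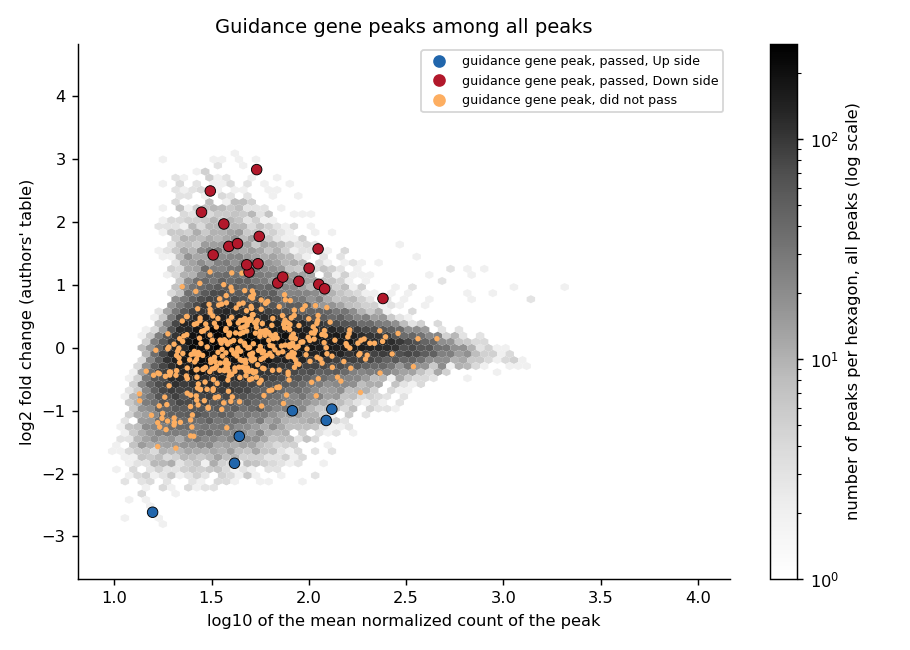
Log2 fold change of each peak (vertical axis, authors' deposited table) against log10 of its mean normalized count over all libraries (horizontal axis). Grey hexagons count all 60875 peaks on a log scale, orange points are guidance gene peaks that did not pass, and blue and red points are the changed peaks, 6 Up and 19 Down. The changed guidance gene peaks run from -2.61 (SEMA6A) to 2.83 (PLXNA2), inside the range of all changed peaks, -3.29 to 4.44.

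Of the 64 genes with a peak, 16 had at least 1 changed peak (25%), against 14.0% of the 17078 protein-coding genes with a peak. On the Up side there were 5 such genes (7.81%, against 6.74%) and on the Down side 14 (21.9%, against 8.39%). SLIT3, NRP2 and EPHB2 had changed peaks on both sides. Guidance genes had more peaks each, with a median of 4.5 against 2.0, which gives each gene more chances of a changed peak. Among genes with 1 to 3 peaks, 3 of 24 had a changed peak (12.5%, against 5.45% of all genes in that range), among those with 4 to 9 peaks 2 of 25 (8.0%, against 26.9%), and among those with 10 or more 11 of 15 (73.3%, against 64.4%). The shares lay above the background in 2 of these ranges and below it in the third. The 16 genes with a changed peak had a median length of 216 kb, from 11.6 kb (NTN5) to 1743 kb (ROBO2). The other 48 genes with a peak had a median of 45.3 kb, and all protein-coding genes with a peak one of 29.7 kb.

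**Figure D2:**
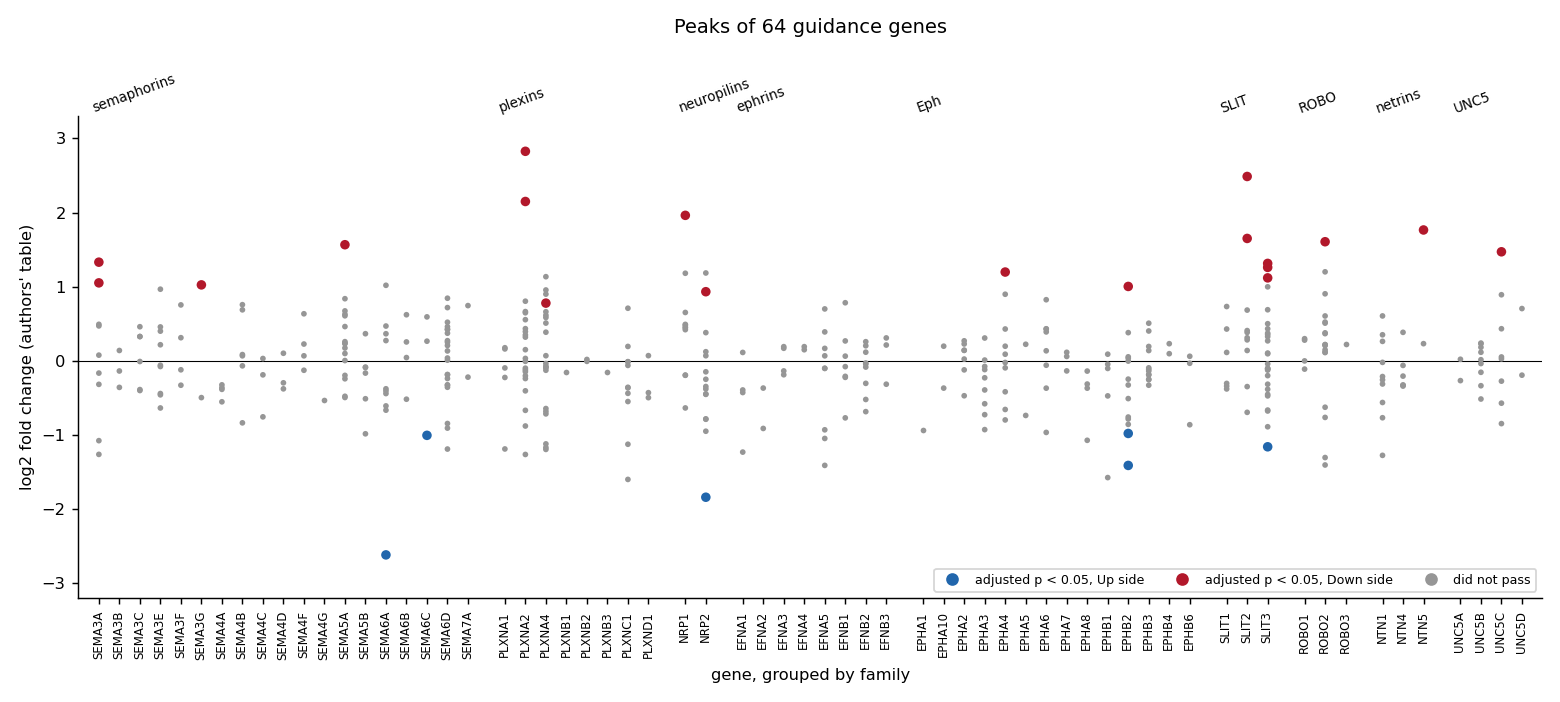
Log2 fold change of every peak (vertical axis, authors' deposited table) for each of the 64 guidance genes with a peak (horizontal axis, grouped by family). Large blue and red points are changed peaks on the Up and Down side, and small grey points did not pass. Most genes have only grey points, the ephrins have no changed peak, and PLXNA2, SLIT2, NRP1 and NTN5 hold the highest values.

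Changed peaks of these genes lay away from promoters, as most changed peaks of the whole table did. None of the 44 peaks that overlap a promoter window changed, against 0.826% of all peaks that do so (DESeq2; 2 of the 44 had an unadjusted p under 0.05). At that background rate, a count of 0 is no departure from the other promoters. Among the 267 peaks inside gene bodies and outside promoter windows, 19 changed (7.12%, against 6.39%). Of these, 2 lay on the Up side (0.749%, against 2.65%) and 17 on the Down side (6.37%, against 3.74%). Among the 125 peaks outside bodies and promoter windows, 6 changed (4.80%, against 7.72%), with 4 Up (3.20%, against 2.81%) and 2 Down (1.60%, against 4.91%). Inside gene bodies the Down side held more of the changed peaks, and outside them its share was below that of all such peaks. The difference between these classes was not tested. The promoter table has no window for 10 of the guidance genes and none on chromosome 8. Peaks at starts without a window fall in the other 2 classes, unless they overlap a window of another gene.

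**Figure D3:**
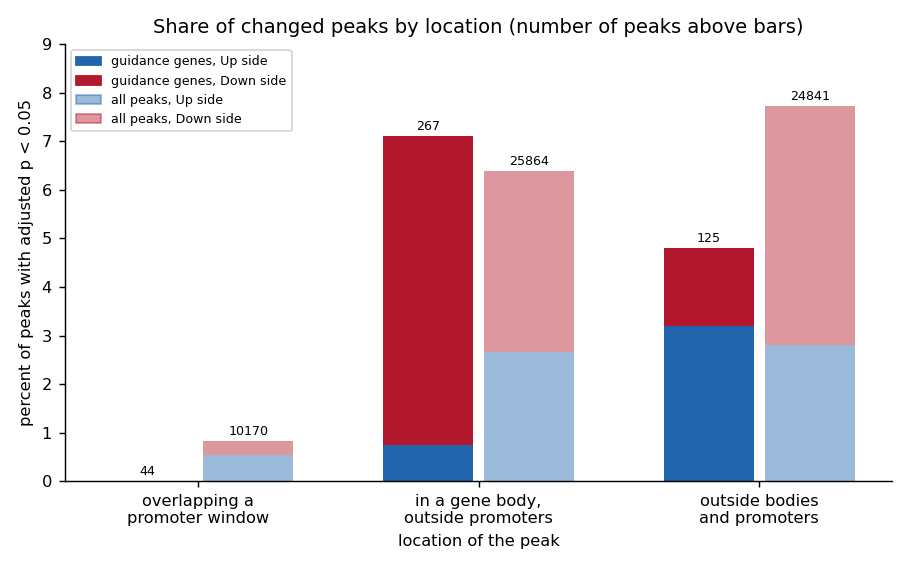
Percent of peaks with an adjusted p under 0.05 (vertical axis, from 0) by location (horizontal axis), for guidance genes (full colour) and all peaks (pale), with the number of peaks above each bar. Blue is the Up side and red the Down side. Peaks at starts with no window in the promoter table stand in the other classes, unless they overlap a window of another gene. The guidance gene bar is at 0 for promoters, nearly all red inside gene bodies (17 of 19) and mostly blue outside (4 of 6).

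With distance in place of classes, none of the 99 guidance gene peaks within 10 kb of a protein-coding start in the promoter table changed, against 2.62% of all such peaks (DESeq2; 5 of the 99 had an unadjusted p under 0.05). All 25 changed peaks were among the 335 farther away (7.46%, against 7.55%). The 2 UNC5D peaks were in neither class, because the promoter table holds no start on chromosome 8. For the same reason the classes of all peaks, 18493 and 39682, leave out part of the 60875. Peaks of the other genes with no window were measured from the starts of other genes. The share of distant peaks that changed was close to that of the whole table. For the 21 changed peaks whose gene has a window, the distance to the nearest start of that gene ran from 11.2 kb (SEMA3G) to 425 kb (SLIT3), with a median of 102 kb. These distances use only starts in the promoter table, which at ROBO2 and PLXNA4 lie inside the gene body. The ROBO2 peak enters at 424 kb, though it lies 19196 bp from the body. Of the 46 neighbours of changed peaks in the same locus (45 distinct peaks), none changed, against 6.0% of all peaks (DESeq2; the smallest adjusted p was 0.180, and 5 had an unadjusted p under 0.05). The authors' deposited table gives them log2 fold changes between -1.26 and 0.91, and 20 of the 46 had the sign of the changed peak beside them. The nearest such neighbour was 1994 bp away and the median gap was 17540 bp.

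The promoter peaks themselves were open and measured with more precision than the rest, with a median mean count of 109 and a median SE of 0.28. They covered 41 genes, and the authors' deposited table puts them between -0.53 (SEMA4G) and 0.61 (ROBO2). For 33 of the 44, the 95% interval lay within 1 log2 unit of 0. ROBO2, with the smallest adjusted p among them, had 0.61 ± 0.29 (SE) in the authors' deposited table (DESeq2 adjusted p = 0.249). The promoter peak of SLIT2 had 0.38 ± 0.28 there (95% interval -0.16 to 0.93) and that of SLIT3 0.27 ± 0.28 (-0.28 to 0.82). The authors' deposited table gives 0.32 ± 0.40 for the PLXNA2 promoter peak (-0.46 to 1.11), 0.07 ± 0.23 for that of NRP2 (-0.38 to 0.52) and -0.06 ± 0.42 for that of SEMA3E (-0.89 to 0.77). These intervals bound the change at the printed windows and do not show that it is 0.

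**Figure D4:**
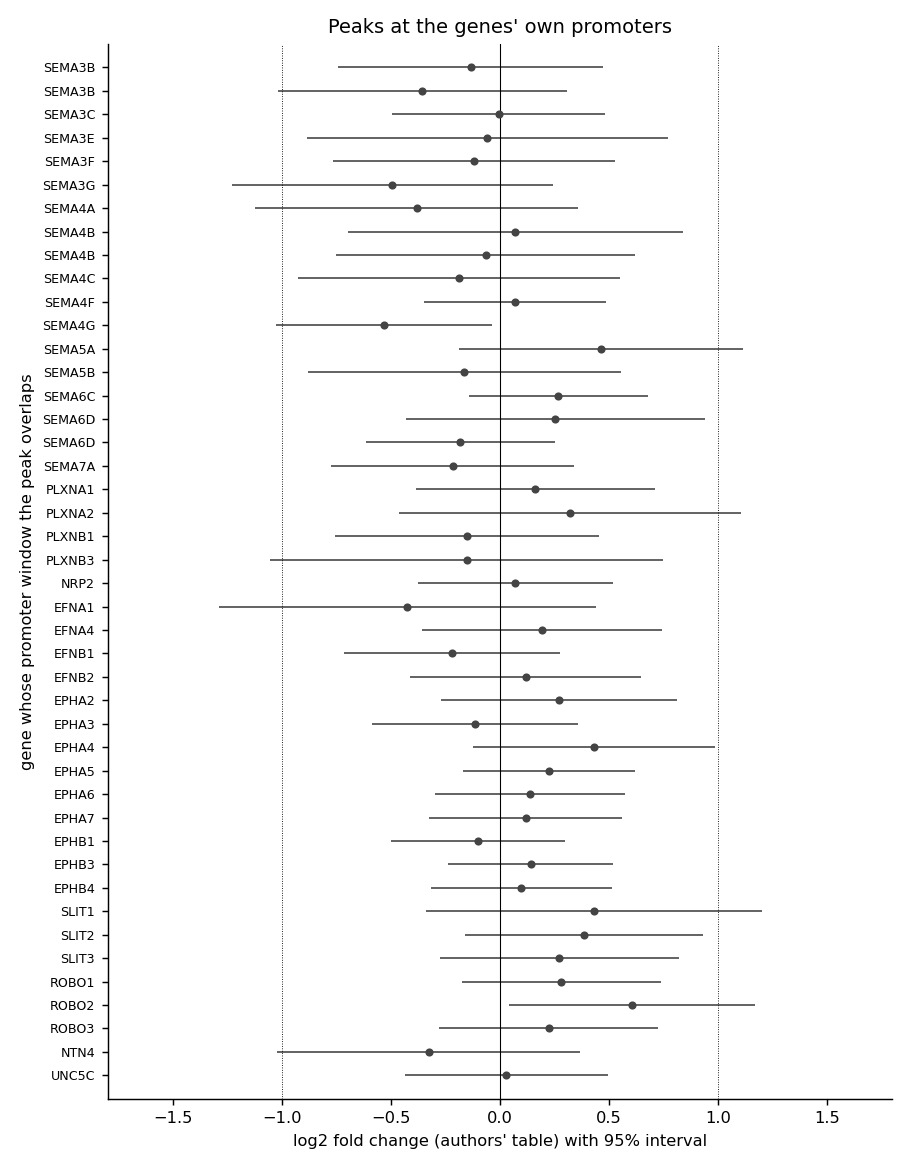
Log2 fold change with its 95% interval (horizontal axis, authors' deposited table) for the 44 peaks that overlap a promoter window of a guidance gene (vertical axis, 1 line per peak, ordered by family). Dotted lines mark 1 log2 unit on either side of 0. No point lies beyond these lines, and 33 of the intervals stay within them.

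The peaks that carry a guidance gene's symbol in the authors' deposited table gave the same count. There were 45, for 40 genes, and none changed, against 2.11% of all symbol-bearing peaks (DESeq2; 1 of the 45 had an unadjusted p under 0.05 and the smallest adjusted p was 0.250). The authors' deposited table puts them between -0.64 (PLXNA4) and 0.43 (SLIT1), with a median of 0.10. For 3 of them the nearest gene was another one: the EFNB3 label lay nearest to WRAP53, the EFNA4 label to ADAM15 and the EFNA3 label to EFNA4. All 25 changed peaks were linked to a guidance gene by position alone.

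Among the ligands of plexins, the 19 semaphorin genes all had a peak, and 6 of their 117 peaks changed (5.13%, against 6.0% of all peaks), 2 Up and 4 Down. SEMA5A, a transmembrane semaphorin with thrombospondin repeats, held the semaphorin peak with the smallest p. In the authors' deposited table this peak (chr5:9265327-9266133, in the gene body, 280 kb from the start) had a log2 fold change of 1.57 ± 0.29 (SE, DESeq2 adjusted p = 2.24e-05), a 2.96-fold difference. The other 15 SEMA5A peaks did not pass, and 12 of the 16 had positive values. SEMA3A, a secreted repellent of sensory and sympathetic axons, changed on the Down side at 2 peaks of its body. The authors' deposited table gives 1.33 ± 0.38 (adjusted p = 0.0141) at chr7:84025317-84025886 and 1.05 ± 0.31 (adjusted p = 0.0150) at chr7:84336397-84336812. The remaining 7 SEMA3A peaks ran from -1.26 to 0.49, so both changed peaks stood above all others of the gene. SEMA3G, a secreted class 3 member known from endothelial cells, had a changed body peak at 1.03 ± 0.33 (adjusted p = 0.0392, chr3:52433672-52434055) in the authors' deposited table.

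On the Up side, SEMA6A, a transmembrane ligand of A-type plexins, had -2.61 ± 0.79 (adjusted p = 0.0211 per the authors' deposited table), the lowest value of any guidance gene peak. This peak (chr5:116663191-116663456) had a mean count of only 15.7 and lay 88368 bp outside the gene body. SEMA6C, of the same class, had -1.0 ± 0.32 (adjusted p = 0.0376) at a peak 78 bp beyond its downstream end (chr1:151131209-151131607) in the authors' deposited table. The other SEMA6C peaks, at its promoter and elsewhere, had positive values of 0.27 and 0.59. The other 14 semaphorin genes had 1 to 22 peaks each and none changed. The most peaks were at SEMA6D, a transmembrane ligand of PLXNA1 known from chick heart development, where the authors' deposited table puts 22 peaks between -1.19 and 0.85 with a smallest adjusted p of 0.200. SEMA3C, a secreted ligand needed for outflow tract septation in mice, had 6 peaks between -0.40 and 0.46 (smallest adjusted p 0.661). SEMA3E, the ligand of PLXND1, had 9 peaks between -0.63 and 0.97 (smallest adjusted p 0.317).

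Among the plexins, the semaphorin receptors, 3 of 67 peaks changed (4.48%, against 6.0% of all peaks), all on the Down side (3.64% of all peaks). PLXNA2, an A-type plexin that works with neuropilins and class 6 semaphorins, held the peak with the smallest p and the highest value of all guidance genes. In the authors' deposited table this peak had 2.83 ± 0.41 (SE, DESeq2 adjusted p = 1.13e-08; chr1:208226218-208226813), a 7.09-fold difference, with a mean count of 53.9. It lay in the gene body, 17.9 kb from the start. A second body peak, 102 kb from the start (chr1:208141882-208142243), had 2.15 ± 0.52 (adjusted p = 0.00196) in the authors' deposited table, with a mean count of 28.1. The other 20 PLXNA2 peaks ran from -1.26 to 0.81 and none passed. Both changed peaks therefore stood more than 1 log2 unit above every other peak of the gene.

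PLXNA4, another A-type plexin, also had 22 peaks. Its changed peak (chr7:132164581-132165320) lay in the body, 412 kb from the start in the promoter table. This peak had the highest mean count of the 25 changed peaks, 240, and the smallest absolute change, 0.78 ± 0.22 (adjusted p = 0.0131), in the authors' deposited table. Among the plexins with no changed peak, PLXNC1, the receptor of SEMA7A, had 11 peaks from -1.60 to 0.71 (smallest adjusted p 0.109), 9 of them negative. PLXND1, the endothelial plexin needed for outflow tract and vessel patterning in mice, had 3 peaks from -0.49 to 0.07 (smallest adjusted p 0.368). PLXNA1, PLXNB1, PLXNB2 and PLXNB3 had 1 to 5 peaks each, from -1.19 to 0.18 in the authors' deposited table.

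Both neuropilins had a changed peak, 3 of 26 in all (11.5%, against 6.0% of all peaks), 1 Up and 2 Down (2.36% and 3.64% of all peaks). NRP1, the coreceptor of SEMA3A and of VEGFA, had a body peak at 1.96 ± 0.46 (SE, DESeq2 adjusted p = 0.00110; chr10:33321669-33322081) in the authors' deposited table, a 3.90-fold difference. Of its 11 peaks 8 were positive, and a peak at 1.18 ± 0.40 just missed the threshold (adjusted p = 0.0504). At NRP2, the coreceptor of SEMA3C, SEMA3F and VEGFC, the changed peaks went opposite ways. The authors' deposited table gives 0.93 ± 0.26 (adjusted p = 0.0111) for a body peak 32.7 kb from the start (chr2:205714864-205715532) and -1.84 ± 0.45 (adjusted p = 0.00226) for a peak 9093 bp beyond the downstream end (chr2:205807224-205807635). The other 13 NRP2 peaks ran from -0.95 to 1.19. The promoter peak of NRP2 lay between the changed peaks in value, near 0.

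In the SLIT family, secreted ligands of ROBO receptors, 6 of 44 peaks changed (13.6%, against 6.0% of all peaks), 1 Up and 5 Down. SLIT2 held the second highest value of all guidance gene peaks. In the authors' deposited table a body peak 194 kb from the start (chr4:20445889-20446244) had 2.49 ± 0.51 (SE, DESeq2 adjusted p = 0.000126), a 5.61-fold difference, with a mean count of 31.1. A second body peak, 33.3 kb from the start (chr4:20285006-20285363), had 1.65 ± 0.42 (adjusted p = 0.00387 per the authors' deposited table). The remaining 8 SLIT2 peaks ran from -0.69 to 0.69. A cluster of 4 open peaks covered the first kilobases of SLIT2, including the printed promoter window. These had 0.38, 0.28, 0.31 and 0.41 in the authors' deposited table, with SEs of 0.28 to 0.39, and none passed.

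SLIT3 had the most peaks of any guidance gene, 28, of which 4 changed. The 3 on the Down side lay far into the gene body. They were at 425 kb from the start (chr5:168875759-168876263, 1.26 ± 0.29, adjusted p = 0.000852), 393 kb (chr5:168908184-168908613, 1.12 ± 0.34, adjusted p = 0.0211) and 333 kb (chr5:168967936-168968396, 1.32 ± 0.39, adjusted p = 0.0180 per the authors' deposited table). The 1 on the Up side lay nearer the start, at 175 kb (chr5:169125488-169126078), with -1.16 ± 0.27 (adjusted p = 0.00112) in the authors' deposited table and the highest mean count of the locus, 123. The 3 Down peaks and the 1 Up peak thus lay apart in the gene, with 6 peaks that did not pass between the nearest of them. Of all 28 SLIT3 peaks, 15 were negative and 13 positive. SLIT1 had 6 peaks from -0.38 to 0.73 and none passed (smallest adjusted p 0.244).

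**Figure D5:**
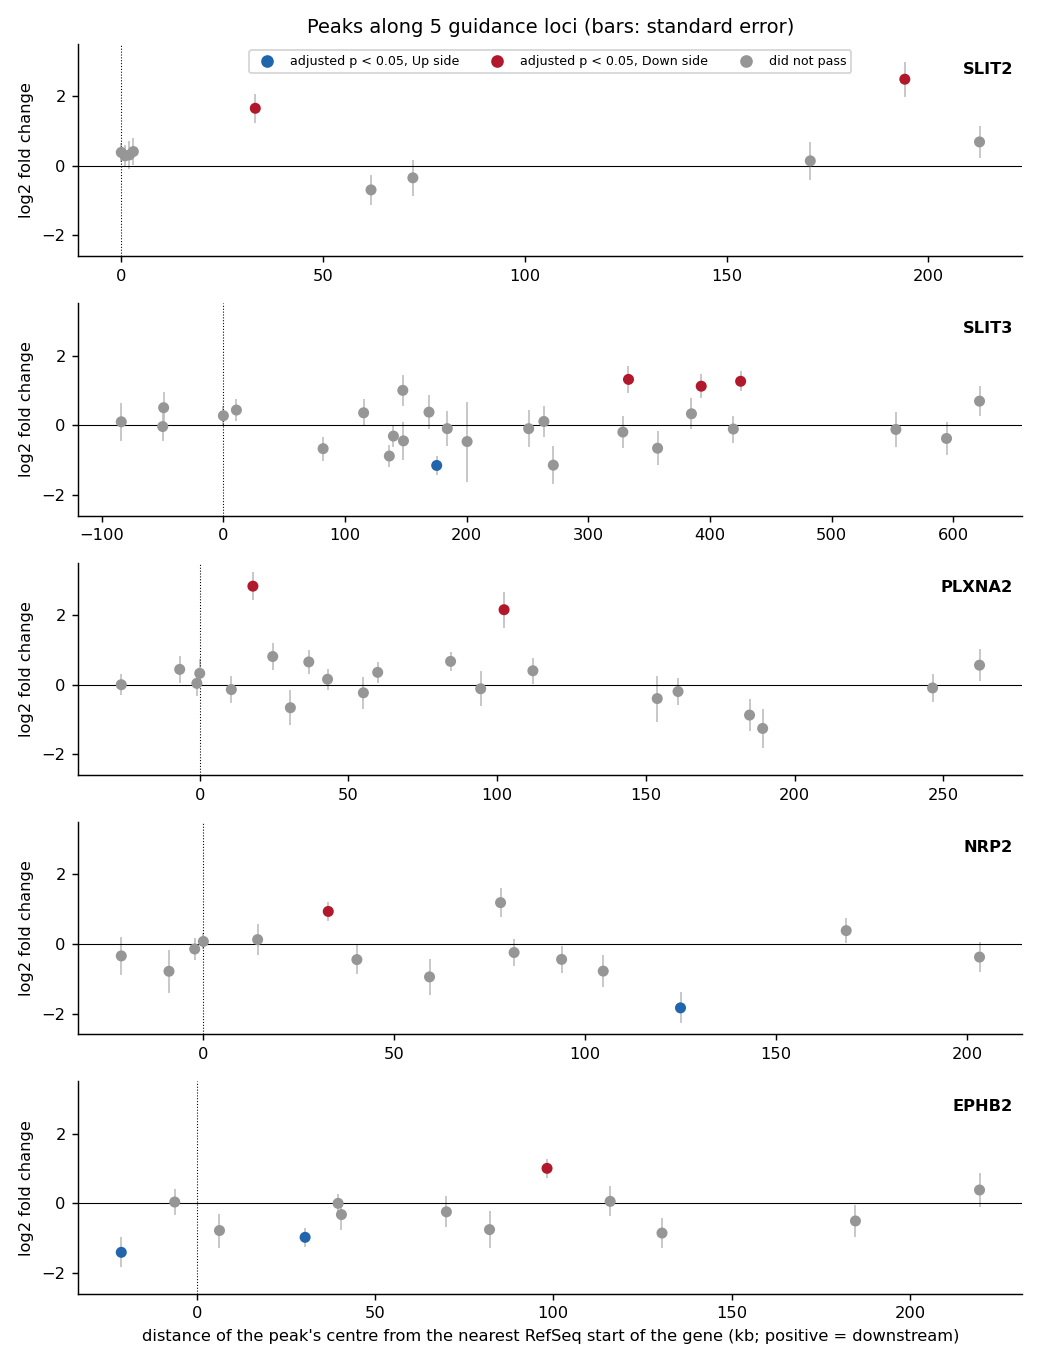
Log2 fold change with its SE (vertical axes, authors' deposited table) for each peak of SLIT2, SLIT3, PLXNA2, NRP2 and EPHB2, against the distance of the peak's centre from the nearest RefSeq start of the gene in kb (horizontal axes, positive downstream, dotted line at the start). Blue and red points changed on the Up and Down side, and grey points did not pass. Apart from the most upstream EPHB2 peak, which has a neighbour on 1 side, each changed peak has a grey point as its next peak on both sides.

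Of the ROBO receptors, only ROBO2 had a changed peak, 1 of 23 in the family (4.35%, against 6.0% of all peaks). It lay 19196 bp upstream of the RefSeq gene body (chr3:75887108-75887479) with 1.61 ± 0.45 (SE, DESeq2 adjusted p = 0.0117 per the authors' deposited table). The 2 starts of ROBO2 in the promoter table lie inside this long body, the nearer one 424 kb from the peak. Of the 23 ROBO peaks 18 were positive, with a median of 0.22. At ROBO2 the peaks that did not pass ran from -1.40 to 1.20, and ROBO1 had 4 peaks from -0.11 to 0.30 (smallest adjusted p 0.657). ROBO3 had 1 peak, at 0.22, in the authors' deposited table.

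Among the netrins, laminin-related secreted ligands, 1 of 18 peaks changed (5.56%, against 6.0% of all peaks). It belonged to NTN5 by position, 3901 bp beyond the downstream end of the gene (chr19:48657115-48657506), with 1.77 ± 0.37 (SE, DESeq2 adjusted p = 0.000236) in the authors' deposited table. NTN1, the founding guidance ligand of the family, had 10 peaks. Its lowest had -1.27 ± 0.45 and did not pass (adjusted p = 0.0655), and 7 of the 10 were negative. NTN4, a netrin of basement membranes, had 6 peaks from -0.34 to 0.39. For the UNC5 receptors, which mediate netrin repulsion, 1 of 21 peaks changed (4.76%, against 6.0% of all peaks). UNC5C had 1.47 ± 0.47 (adjusted p = 0.0316) at a body peak 265 kb from the start (chr4:95283376-95283710) in the authors' deposited table. UNC5B, known from endothelial cells, had 9 peaks from -0.51 to 0.24 and none passed (smallest adjusted p 0.493). UNC5A and UNC5D had 2 peaks each, from -0.27 to 0.71.

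None of the 39 ephrin peaks changed, against 6.0% of all peaks (DESeq2; 4 had an unadjusted p under 0.05), and all 8 ephrin genes had a peak. The smallest adjusted p among the ephrins was 0.121, at a body peak of EFNA5 with -0.93 ± 0.37 (95% interval -1.65 to -0.21) in the authors' deposited table. EFNB2, the arterial ephrin, had 9 peaks from -0.68 to 0.26 (smallest adjusted p 0.309). EFNB1 had 7 peaks from -0.77 to 0.78 and EFNA1, 4 peaks from -1.23 to 0.11. EFNA3 and EFNA4 lie side by side and share 1 of their peaks under the rule. Between them their peaks stayed from -0.19 to 0.19 in the authors' deposited table.

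For the Eph receptors, 4 of 81 peaks changed (4.94%, against 6.0% of all peaks), 2 on each side, at EPHB2 and EPHA4. EPHB2, a receptor of B ephrins, had 3 of them. In the authors' deposited table a body peak 98.3 kb from the start (chr1:22808842-22809344) had 1.0 ± 0.27 (SE, DESeq2 adjusted p = 0.00739). Another body peak, 30.4 kb from the start (chr1:22740831-22741660), had -0.98 ± 0.28 (adjusted p = 0.0141) there, and a peak 20957 bp upstream of the gene (chr1:22689490-22689881) had -1.41 ± 0.43 (adjusted p = 0.0254). The Up side thus held the peaks upstream and early in the gene, and the Down side the one farther in. EPHA4, a receptor of both ephrin classes, had 1.20 ± 0.39 (adjusted p = 0.0372) at a body peak 81.5 kb from the start (chr2:221490532-221491032) in the authors' deposited table. Of the other 12 receptor genes none had a changed peak. EPHB4, the venous partner of EFNB2, had 2 peaks at 0.10 and 0.23. EPHA2 had 7 from -0.47 to 0.27, EPHA3 had 9 from -0.93 to 0.31 and EPHB3 had 12 from -0.33 to 0.51 in the authors' deposited table.

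Ligands and receptors were alike in number. The 34 ligand genes had 218 peaks, 13 of them changed (5.96%, against 6.0% of all peaks), 3 Up and 10 Down. The 33 receptor genes also had 218 peaks, with 12 changed (5.50%), 3 Up and 9 Down. The difference between ligands and receptors was not tested.

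The list of downstream and partner genes held 53 genes, all with a peak. It took in further receptors such as DCC, binding partners, NTNG1 and NTNG2, and genes that carry guidance signals to the cytoskeleton. Of their 328 peaks 10 changed (3.05%, against 6.0% of all peaks), 7 Up and 3 Down, with a median of -0.09. The authors' marking took in 30 (9.15%, against 9.84%), and 54 had an unadjusted p under 0.05 (16.5%, against 16.4%), both close to all peaks. The difference between this list and the guidance genes was not tested. SRGAP3, a GTPase-activating protein of the SLIT and ROBO pathway, had -1.87 ± 0.30 (SE, DESeq2 adjusted p = 3.56e-07) in the authors' deposited table. TIAM1, a RAC1 exchange factor, had -1.54 ± 0.34 (adjusted p = 0.000445) and -1.21 ± 0.38 (adjusted p = 0.0320). FARP1, MICAL3 and RND1, which act below plexins, also had a changed peak on the Up side, that of RND1 17634 bp outside the gene. DCC, the attractive netrin receptor, had 1.07 ± 0.31 (adjusted p = 0.0137) and TRIO, an exchange factor, 1.27 ± 0.43 (adjusted p = 0.0480) in the authors' deposited table. RGMA, a ligand of the netrin receptor neogenin, changed at 2 peaks in opposite directions, 1.31 ± 0.37 (adjusted p = 0.0110) at a peak 37489 bp outside the gene and -1.18 ± 0.35 (adjusted p = 0.0184) in the gene body, in the authors' deposited table.

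The vascular endothelial growth factors share neuropilins with the semaphorins. Of the 8 genes of this list, 7 had a peak, and 4 of 43 peaks changed (9.30%, against 6.0% of all peaks), 2 on each side. The authors' deposited table gives -1.82 ± 0.40 (DESeq2 adjusted p = 0.000409) for FLT1, at a peak 50521 bp outside the gene, and -1.65 ± 0.47 (adjusted p = 0.0143) for VEGFA, at a peak 19876 bp outside it. On the Down side it gives 1.44 ± 0.43 (adjusted p = 0.0216) for VEGFC, at a peak in the gene body, and 1.27 ± 0.41 (adjusted p = 0.0365) for KDR, at a peak 88631 bp outside the gene. VEGFD had no peak.

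Markers of the cells a progenitor culture could hold were read by the same rule. All 10 cardiac progenitor markers had a peak, and 6 of their 76 peaks changed (7.89%, against 6.0% of all peaks). These were Up at GATA4, NKX2-5, PDGFRA and TBX20 and Down at GATA6 and TBX5. Of the 26 peaks of the 5 endoderm markers, 10 changed, all on the Up side (38.5%, against 2.36% of all peaks on that side). They lay at APOA1, FOXA2, HNF4A and SOX17, and the median of the 26 was -0.88. Endothelial markers had 1 changed peak on each side among 26 (7.69%, against 6.0% of all peaks, CDH5 Up and TEK Down). None of the 14 pluripotency and none of the 21 neural and neural crest peaks changed, against 6.0% of all peaks (DESeq2, 1 and 5 had an unadjusted p under 0.05). Among so few peaks, counts of 0 are no departure from that share. DPPA4, SOX10 and SOX18 had no peak. The part of the endoderm marker difference in the guidance gene changes was not tested.

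Other thresholds, filters and scaling were each read against their own background. With an adjusted p under 0.01, 11 guidance gene peaks changed (2.52%, against 3.11%), and with one under 0.1, 30 did (6.88%, against 8.37%). The authors' own marking, which needs 1 log2 unit or more in either direction and p under 0.05 without adjustment, took in 35 (8.03%, against 9.84%), 14 Up and 21 Down, of which 22 were among the 25. When only peaks with at least the median mean count were kept, 16 of 215 changed (7.44%, against 7.69%). Once the running median over mean count was subtracted from each log2 fold change, 22 changed (5.05%, against 6.05%), all of them among the 25. The guidance gene share was below its background under each of these 5 settings.

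The reach of 100 kb is a choice. The farthest peak that was counted lay 95856 bp from EPHA3 (-0.93, adjusted p = 0.569) and the nearest one left out lay 100661 bp from EFNB1 (-0.63, adjusted p = 0.734), both in the authors' deposited table. Beyond 100 kb, 139 further peaks had a guidance gene as the nearest gene, and 9 of them changed (6.47%, against 6.0% of all peaks). With a reach of 25 kb, 24 of 375 peaks changed (6.40%), and with gene bodies alone 19 of 307 (6.19%). These shares lay slightly above that of all peaks, where the main one lay slightly below. All peaks include those beyond 25 kb and outside gene bodies, so this is no like background. Over the whole table, 1734 peaks in protein-coding gene bodies changed and 34154 did not. Gene bodies thus held 47.4% of all changed peaks and 59.7% of the others. For the guidance genes they held 76.0% of the changed peaks and 70.6% of the others. Against gene bodies the guidance gene share was therefore the higher one, as it was outside promoter windows (7.12%, against 6.39%). This difference was not tested.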

How the data were processed

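Chromatin accessibility was measured by ATAC-seq in 4 libraries, 2 of the high and 2 of the low purity group, grouped by their titles. Per the submitters' processing notes, the tools were BWA, MACS2 and DESeq2 and the build GRCh38 (hg38), without versions or settings. No source used here states Tn5 shifting, duplicate removal or pooling for peak calls, and each could change a peak's count. The labels name total RNA as the molecule, at odds with the assay. Per the file headers, the deposited table holds the authors' mean normalized count (a signal over all libraries), log2 fold change with its standard error, the Wald score and both p-values, raw and adjusted. The adjusted ones differed from a recomputed Benjamini-Hochberg adjustment by at most 3.4e-06 (60875 peaks).

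The test planned for counts could not be used, because the table holds no value per library; the authors' adjusted p under 0.05 was used. The labels call the replicates biological without naming separate differentiations. The p-values therefore rest on these libraries alone and need not cover the spread between differentiations. Depth is unknown, and precision is given by the standard error and the 95% normal interval. Gene bodies, starts and sequences came from RefSeq (GRCh38.p14). Coordinates are those of the authors' table, whose counting from 0 or 1 is not stated; exons and introns were not used here.

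The genes, lists and rules were chosen with earlier results of these data known. Named peaks were all changed peaks, the smallest p of each family and the range of each gene. No changed peak overlapped a promoter window, so the printed windows, the location classes and the 10 kb limit were chosen after values were seen, as was naming further genes with their ranges. In all, 1 further gene of the name pattern is not reported here. The adjustment, the calling of changed peaks and the recentring were tested on simulated fold changes. The nearest-gene assignment was tested only on a few made-up intervals, and the counts per gene, family and location were not tested this way. The running median spanned 2001 peaks. Python 3.11.15, pandas 2.3.3, NumPy 2.4.6, SciPy 1.17.1 and matplotlib 3.10.9 were used.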

Additional observations from a re-analysis of the deposited data

How the results depend on the processing

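Counts of changed guidance gene peaks moved with the threshold and with the link between peak and gene. An adjusted p under 0.01 left 11 of the 25 peaks (2.52%, against 3.11% of all peaks), 2 Up and 9 Down, at 8 genes. It left 2 of the 10 partner list peaks, among 328. An adjusted p under 0.1 gave 17 of 328 partner list peaks, against 8.37% of all peaks. The authors' marking gave 14 of 436 peaks on the Up side, against 2959 of 60875. It gave 30 partner list peaks (9.15%, against 9.84%). Keeping only peaks with at least the median count left 16 changed peaks (7.44%, against 7.69%), 3 of them Up. Peaks overlapping the gene body left 2 Up, both outside promoter windows (0.749%, against 2.65%). Peaks carrying the symbol gave 0 changed peaks of 45 (0 Up, 0 Down), against 2.11% of all symbol-bearing peaks. They gave 0 changed genes and 0 of 43 partner list peaks, and this setting tests fewer peaks. In all, 35 values of the main counts and median stayed close to the reported ones (counts within 1.5 times) and 16 moved, as did 62 and 28 for single families and the VEGF list. The median of the guidance gene peaks, -0.02, was counted as close throughout, but its sign turned in some settings. It was 0.11 for peaks with at least the median count, 0.0055 within 25 kb and 0.10 for symbol-bearing peaks. It stayed negative with gene bodies alone (-0.0073), with a single nearest gene (-0.01) and after recentring (-0.02). Recentring turned the sign of the UNC5 median from 0.02 to -0.04. No paired analysis was possible because the table holds no value per library; for the same reason the replicate block, leaving out a replicate and a new DESeq2 fit were not run. Peaks with low counts had wide errors, so smaller changes there were not detectable.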
